A study of Mus musculus with 20 samples.

Results

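The genes of the procoagulant clotting factors were followed in mouse liver: F2, F5, F7, F9, F10, F11, F12, Kng1 and Kng2, chosen by symbol, 9 genes of the 23993 with an intact line in the deposited count table. All 9 had an intact line and all 9 passed the filter on low counts, among 10207 genes tested. Liver RNA came from 20 female mice, 1 library per animal, in 4 groups of 5. OC.Sed mice ate a diet with oral combined contraceptives (OC) and were sedentary, Con.Sed mice ate a vehicle diet and were sedentary, OC.VWR mice ate the OC diet and had voluntary wheel running (VWR), and Con.VWR mice ate the vehicle diet and had voluntary wheel running. The hormones in the diet, their dose, and the strain and age of the mice are not given in the sources used here, and no genetic change is named for any group.

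Most clotting factors are made by hepatocytes, secreted into plasma as inactive proteins, and switched on one after another at sites of injury. Factor VII starts the extrinsic route when it meets tissue factor. Factor XII, factor XI and factor IX form the intrinsic route, for which high-molecular-weight kininogen is a cofactor. Both routes activate factor X, which with factor V turns prothrombin into thrombin, the enzyme that makes fibrin. Prothrombin and factors VII, IX and X need a carboxylation that depends on vitamin K before they can bind membranes. In women, oestrogen-containing contraceptives are known for a raised risk of venous thrombosis and for higher plasma levels of several clotting factors. Transcript levels in liver are not plasma levels, and plasma was not measured here.

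Averaged over activity, the OC diet went with lower mRNA of prothrombin, factor X and the kininogen Kng2 and with higher mRNA of factor XI. In that comparison 4 of the 9 genes passed the test (adjusted p below 0.05 over all genes), 3 of them lower (F2, F10 and Kng2) and 1 higher (F11). The background was high, since 22.9% of all genes passed in that comparison, 11.9% higher and 11% lower. The largest of the 4 changes was a 1.34-fold rise of F11, and the largest fall was 1.22-fold, for F2. Log2 fold changes in sedentary and in running mice were -0.27 and -0.31 for F2 and -0.33 and -0.15 for F10. They were -0.44 and -0.03 for Kng2 and 0.63 and 0.22 for F11. F10, Kng2 and F11 passed in sedentary mice alone and F2 in running mice alone, while the interaction of diet and activity passed for 0 of the 9. F5, F7, F9, F12 and Kng1 did not pass averaged over activity, and of these only Kng1 passed in sedentary mice (edgeR adjusted p = 0.0476). None of the 9 passed for wheel running. With libraries scaled by their totals alone, F10 and Kng2 no longer passed averaged over activity, and F9 did. Hepatocyte markers moved with the diet too, and 5 of 7 of them, albumin included, fell averaged over activity. In bulk liver, fewer cells of a type and less RNA per cell cannot be told apart.

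The upstream sequences of 5 of these genes are shown because F2, F10, F11 and Kng2 carried the averaged diet calls and F9 held the STAT5 match. Of the 9 genes, 8 matched an entry of the RefSeq promoter table (GRCm38.p6), and the 250 bases before each start were read 5′ to 3′ on the gene's own strand. Capitals mark the motif matches described beneath the sequences, and a sequence without capitals held none of the letters searched. The Kng2 sequence lies within the span GENCODE gives the gene, since RefSeq starts it further downstream, and overlaps none of its exons.
F2 (chr2:91636458-91636707, minus strand): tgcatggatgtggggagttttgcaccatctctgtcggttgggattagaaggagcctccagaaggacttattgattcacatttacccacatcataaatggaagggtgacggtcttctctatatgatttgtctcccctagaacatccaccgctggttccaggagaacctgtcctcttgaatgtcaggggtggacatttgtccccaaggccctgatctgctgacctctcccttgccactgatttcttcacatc
F10 (chr8:13037058-13037307, plus strand): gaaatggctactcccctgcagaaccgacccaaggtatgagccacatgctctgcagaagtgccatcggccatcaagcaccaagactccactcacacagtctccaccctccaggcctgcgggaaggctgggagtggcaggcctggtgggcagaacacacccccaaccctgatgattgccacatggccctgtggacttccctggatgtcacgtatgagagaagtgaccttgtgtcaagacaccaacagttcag
F11 (chr8:45262032-45262281, minus strand): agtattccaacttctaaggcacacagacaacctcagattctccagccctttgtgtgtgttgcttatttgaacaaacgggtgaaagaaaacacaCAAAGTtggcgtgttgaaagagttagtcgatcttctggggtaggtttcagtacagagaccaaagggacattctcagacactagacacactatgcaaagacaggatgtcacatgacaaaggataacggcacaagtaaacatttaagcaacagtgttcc
Kng2 (chr16:23029102-23029351, minus strand): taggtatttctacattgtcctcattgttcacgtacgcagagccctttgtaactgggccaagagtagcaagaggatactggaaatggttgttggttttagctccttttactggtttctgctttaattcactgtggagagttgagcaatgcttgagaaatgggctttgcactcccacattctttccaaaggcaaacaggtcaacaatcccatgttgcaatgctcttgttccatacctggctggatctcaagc
F9 (chrX:59999214-59999463, plus strand): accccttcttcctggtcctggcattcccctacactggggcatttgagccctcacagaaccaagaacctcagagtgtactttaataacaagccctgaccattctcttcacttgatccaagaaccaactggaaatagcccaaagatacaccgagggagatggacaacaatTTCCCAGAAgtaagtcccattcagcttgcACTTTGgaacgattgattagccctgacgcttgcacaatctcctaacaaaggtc

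Exact letters were searched on both strands of the 8 sequences and of all 32851 promoters in the table. A STAT5 motif, TTCNNNGAA, was present in the F9 sequence alone among the 8, 82 to 74 bases before the start, and in 7.02% of all promoters. The HNF4 motif CAAAGTCCA, the full palindromic HNF1 motif, the C/EBP motif TTGCGCAA and the palindromic oestrogen response element were in none of the 8, and in 0.384%, 0.00913%, 0.164% and 0.0639% of all promoters in that order. Shorter cores were added after the full motifs had been searched. The HNF4 core CAAAGT stood 157 to 152 bases before the F11 start and, on the other strand as ACTTTG, 53 to 48 bases before the F9 start, against 12.6% of all promoters. The HNF1 core GTTAAT was in none of the 8 and in 6.43% of all promoters. The F9 matches did not overlap each other, and each match is a string of letters, with no binding measured.

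The 9 genes took 0.917% ± 0.0421 of the counts in OC.Sed livers and 0.993% ± 0.056 in Con.Sed livers, and 0.904% ± 0.0853 in OC.VWR livers and 0.943% ± 0.0245 in Con.VWR livers (SD, n = 5 each). Single libraries held from 592 counts (F11) to 51863 counts (Kng1) for a gene. In order of level per kilobase of exon, as the mean over the 20 libraries of CPM (counts scaled to a common library size) per kilobase, Kng1 led with 922 ± 133 and was followed by F2 with 655 ± 86.8. F12 had 351 ± 29.2, F10 had 270 ± 38.6, Kng2 had 176 ± 27.7 and F5 had 135 ± 20 CPM per kilobase. F9 had 105 ± 9.08, F7 had 81.9 ± 14.2 and F11 had 38 ± 9.87 CPM per kilobase (SD over 20 libraries). The span from Kng1 to F11 was 24.3-fold. Each gene exceeded the next in all 20 libraries except F12 over F10 and Kng2 over F5, with 19 libraries each, and F5 over F9, with 17 libraries. Per kilobase of the longest coding sequence, 3 pairs of neighbours changed places: F2 had 1623 and Kng1 had 1511, F10 had 499 and F12 had 384, and F9 had 202 and F5 had 153 CPM per kilobase. The plot of level per kilobase by group shows this order in all groups.

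**Figure D1:**
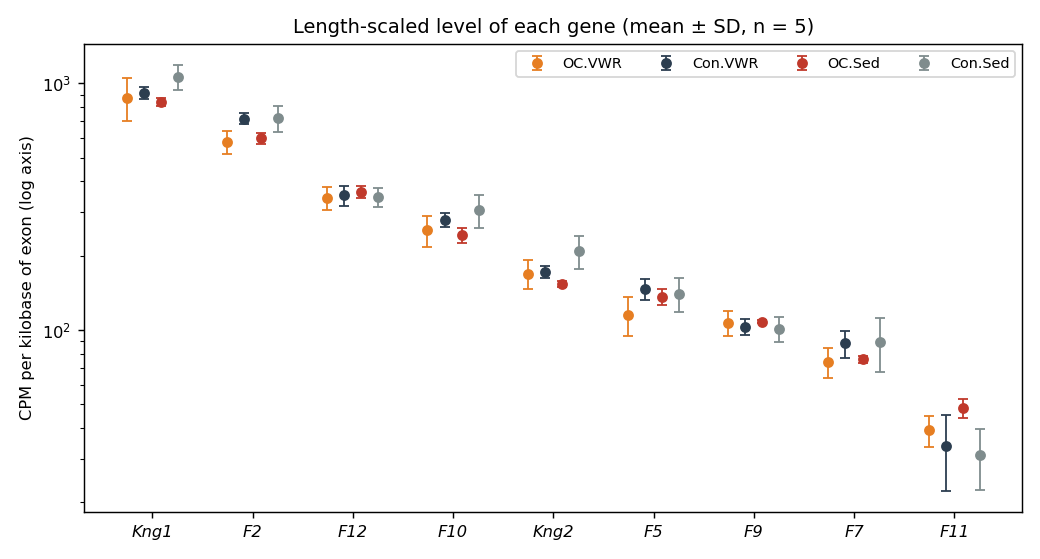
Level of each gene in CPM per kilobase of exon on a log axis, as mean ± SD of 5 mice for OC.VWR, Con.VWR, OC.Sed and Con.Sed. Kng1 lies near 922 and F11 near 38 on average, and F5 and F9 lie close together, with means of 135 and 105.

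The extrinsic and common routes came first by role. Factor VII is encoded by F7 (ENSMUSG00000031443, chr8:13026034-13035809, plus strand, GRCm38) and factor X by F10 (ENSMUSG00000031444, chr8:13037308-13056676, plus strand). The genes lie 1498 bases apart, with 0 coding genes between them.

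F10 had 727, 670, 643, 654 and 609 CPM in OC.Sed livers, against 800, 662, 904, 798 and 996 CPM in Con.Sed livers. The lowest vehicle library, Con.Sed replicate 2, lay among the OC libraries, so the groups overlapped. F10 fell by 0.33 on the log2 scale in sedentary mice, SE 0.11, which is 1.26-fold (edgeR quasi-likelihood test, Benjamini-Hochberg adjusted p = 0.0424). In running mice F10 had 661, 651, 695, 857 and 590 CPM in OC.VWR livers, against 784, 690, 759, 832 and 765 CPM in Con.VWR livers. There 1 OC library, OC.VWR replicate 4, was above all vehicle libraries and 3 were below all of them, and the log2 fold change of -0.15, SE 0.11, did not pass (edgeR adjusted p = 0.394). Averaged over activity F10 fell by 0.24 on the log2 scale, SE 0.08 (edgeR adjusted p = 0.0283), with 9 of 10 OC libraries under the vehicle mean. The sedentary call ended without any 1 of 9 libraries (edgeR adjusted p 0.0506 to 0.106): OC.Sed replicates 2, 3, 4 and 5, Con.Sed replicates 3, 4 and 5, OC.VWR replicate 3 and Con.VWR replicate 5. It also ended under 4 of 8 other settings: library totals (adjusted p = 0.0931), no filter on low counts (0.0646), only the groups compared (0.0697) and the table's displaced lines, whose entries had shifted sideways, moved back in 19 libraries (0.0509). The lines moved back hold no value for 1 library, so that setting also left this library out, and the part of each change was not tested. The averaged call ended without OC.Sed replicate 5 (edgeR adjusted p = 0.0558) and when libraries were scaled by their totals alone (log2 fold change -0.12, adjusted p = 0.133).

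F7 averaged 141 ± 5.23 CPM in OC.Sed livers and 166 ± 40.8 CPM in Con.Sed livers, and 138 ± 19.5 CPM in OC.VWR livers and 164 ± 20.5 CPM in Con.VWR livers (SD, n = 5 each). The wide spread in Con.Sed came from replicate 2, with 97.6 CPM against 167 to 202 CPM in the other 4 libraries. The log2 fold change averaged over activity was -0.24, SE 0.10, and did not pass (edgeR adjusted p = 0.0889). It passed without Con.Sed replicate 2 (edgeR adjusted p = 0.00271) and without OC.VWR replicate 4 (edgeR adjusted p = 0.0464), and with voom and sample weights (adjusted p = 0.0146). In sedentary mice, likewise, a log2 fold change of -0.24 (edgeR adjusted p = 0.272) passed only when Con.Sed replicate 2 was left out, among the 20 libraries left out in turn (log2 fold change -0.38, adjusted p = 0.0175).

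The ratio of F10 to F7 counts tracked the 2 neighbours against each other. It was 4.69 ± 0.278 in OC.Sed livers and 5.18 ± 1 in Con.Sed livers, and 5.01 ± 0.105 in OC.VWR livers and 4.7 ± 0.361 in Con.VWR livers (SD, n = 5 each). Neither diet difference passed an exact two-sided permutation test (adjusted over 4 ratio tests, p = 0.413 in sedentary and p = 0.381 in running mice). The smallest p such a test of 5 against 5 can give is 0.00794. Without Con.VWR replicate 3, and so with 5 against 4, the running comparison had an unadjusted exact permutation p = 0.0317.

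F5 (ENSMUSG00000026579, chr1:164151838-164220277, plus strand) encodes factor V, the cofactor of factor X. In running mice F5 had 672, 1072, 753, 869 and 917 CPM in OC.VWR livers, against 1207, 1005, 1011, 1210 and 1037 CPM in Con.VWR livers. In running mice 4 of the 5 OC libraries were below all vehicle libraries, while OC.VWR replicate 2 lay within the vehicle range. The log2 fold change was -0.35, SE 0.12 (edgeR adjusted p = 0.0646), and it passed without OC.VWR replicate 2 (log2 fold change -0.45, adjusted p = 0.0186) and without Con.Sed replicate 2 (adjusted p = 0.0374). It also passed with DESeq2 (adjusted p = 0.0304) and with voom and sample weights (adjusted p = 0.00755). In sedentary mice F5 averaged 1009 ± 73.7 CPM in OC.Sed livers and 1038 ± 161 CPM in Con.Sed livers (SD, n = 5 each), a log2 fold change of -0.04 that turned to 0.08 with scaling by library totals. Averaged over activity, the log2 fold change of -0.20, SE 0.09, did not pass (edgeR adjusted p = 0.112). It passed without OC.VWR replicate 2 (adjusted p = 0.0407) or Con.Sed replicate 2 (adjusted p = 0.0396), and with voom and sample weights (adjusted p = 0.00658). F5 shares 262 exon bases with the lincRNA gene Gm16548 on the opposite strand, and the strand setting of the counting is not given in the sources used here.

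F2 (ENSMUSG00000027249, chr2:91625320-91636414, minus strand) encodes prothrombin, the precursor of thrombin. F2 had 2933, 2672, 2779, 2781 and 2568 CPM in OC.Sed livers, against 3382, 2706, 3613, 3153 and 3731 CPM in Con.Sed livers. It had 2440, 2821, 2637, 3061 and 2367 CPM in OC.VWR livers, against 3193, 3111, 3453, 3508 and 3262 CPM in Con.VWR livers. All OC.VWR libraries were below all Con.VWR libraries, and in sedentary mice the vehicle library within the OC range was again Con.Sed replicate 2. Averaged over activity F2 fell by 0.29 on the log2 scale, SE 0.07 (edgeR adjusted p = 0.00427), and 10 of 10 OC libraries were below the vehicle mean. That call held under all 7 other settings and without each of the 20 libraries in turn. In running mice F2 was the 1 gene of the 9 that passed, with a fall of 0.31 on the log2 scale, SE 0.10 (edgeR adjusted p = 0.0412), against a background of 13.2% of all genes, 7.09% higher and 6.06% lower. F2 was also the 1 of the 9 whose groups did not overlap there, against 10.4% of all genes.

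The running call of F2 ended without any 1 of 8 libraries (edgeR adjusted p 0.0512 to 0.108): OC.VWR replicates 1, 3 and 5, Con.VWR replicates 3, 4 and 5, and OC.Sed replicates 2 and 4. It also ended under 4 of 8 other settings: library totals (adjusted p = 0.0804), no filter on low counts (0.0683), only the groups compared (0.0663) and displaced lines moved back (0.0571). In sedentary mice F2 had a log2 fold change of -0.27, SE 0.10 (edgeR adjusted p = 0.0634), and passed without Con.Sed replicate 2 (log2 fold change -0.34, adjusted p = 0.0154), with DESeq2 (adjusted p = 0.0123) and with voom and sample weights (adjusted p = 0.0116). The interaction, which is the diet difference in running mice minus that in sedentary mice, was -0.04, SE 0.14, for F2, with a 95% interval from -0.33 to 0.25.

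The intrinsic route held the gene that moved the other way. F11 (ENSMUSG00000031645, chr8:45241174-45262031, minus strand) encodes factor XI, the protease that activates factor IX, and its upstream sequence above carries the HNF4 core. F11 had 103, 123, 106, 98.1 and 108 CPM in OC.Sed livers, against 59.2, 59.7, 52.5, 99.8 and 76 CPM in Con.Sed livers. It had 79.1, 72.7, 101, 86.2 and 100 CPM in OC.VWR livers, against 106, 41.8, 62, 93.3 and 74.1 CPM in Con.VWR livers. In sedentary mice 4 of 5 OC libraries were above all vehicle libraries, whereas in running mice the OC libraries lay within the vehicle range. F11 rose by 0.63 on the log2 scale in sedentary mice, SE 0.20, a 1.55-fold rise (edgeR adjusted p = 0.0319). Averaged over activity it rose by 0.42, SE 0.14 (edgeR adjusted p = 0.0297), and 10 of 10 OC libraries were above the mean of all vehicle libraries. Against the Con.VWR mean alone, 4 OC.VWR libraries were above and 1 was below. In running mice alone the log2 fold change of 0.22, SE 0.19, did not pass (edgeR adjusted p = 0.498), and neither did the interaction of -0.42, SE 0.28 (edgeR adjusted p = 0.428).

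F11 was also the most variable of the 9, with a median coefficient of variation of 20.8% within groups, against 7.88% to 13.3% for the other 8 genes and 11.5% for genes of at least 50 CPM. The sedentary call ended without any 1 of 7 libraries (edgeR adjusted p 0.0504 to 0.0797): OC.Sed replicates 1, 2, 3 and 5 and Con.Sed replicates 1, 2 and 3. The averaged call ended without any 1 of 6 libraries (edgeR adjusted p 0.0524 to 0.0606): OC.Sed replicate 2, Con.Sed replicates 1 and 3, OC.VWR replicates 3 and 5 and Con.VWR replicate 3. Without Con.VWR replicate 2 the log2 fold change in running mice was 0.06.

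F9 (ENSMUSG00000031138, chrX:59999464-60030759, plus strand) encodes factor IX, the protease that activates factor X together with factor VIII. It averaged 295 ± 4.05 CPM in OC.Sed livers and 275 ± 31 CPM in Con.Sed livers, and 293 ± 34 CPM in OC.VWR livers and 282 ± 21.6 CPM in Con.VWR livers (SD, n = 5 each). The OC and vehicle ranges overlapped in both activity groups, and the log2 fold change averaged over activity was 0.08 (95% interval -0.06 to 0.21, edgeR adjusted p = 0.422). With scaling by library totals F9 passed (log2 fold change 0.19, adjusted p = 0.0136). F12 (ENSMUSG00000021492, chr13:55417958-55426793, minus strand) encodes factor XII, the protease that starts the contact reactions. F12 averaged 713 ± 40.5 CPM in OC.Sed livers and 676 ± 59 CPM in Con.Sed livers, and 675 ± 72 CPM in OC.VWR livers and 687 ± 64.2 CPM in Con.VWR livers (SD, n = 5 each). Its log2 fold change averaged over activity was 0.03 (95% interval -0.11 to 0.16, edgeR adjusted p = 0.822), and its sign turned to -0.02 with voom and sample weights.

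The kininogens completed the contact system. Kng1 (ENSMUSG00000022875, chr16:23057865-23082078, plus strand) and Kng2 (ENSMUSG00000060459, chr16:22985854-23029482, minus strand) encode kininogens, the carriers from which bradykinin is cut and, in the long form, the cofactor that holds factor XI and prekallikrein at surfaces. They lie 28382 bases apart, with 0 coding genes between them. The longest identical stretch of their coding sequences is shown because reads within it cannot be assigned to 1 of the 2 genes by sequence. It covers bases 752 to 867 of both coding sequences, 116 bases in the GENCODE transcripts of GRCm38, with no capitals:
Kng1 and Kng2 shared coding stretch (chromosome 16): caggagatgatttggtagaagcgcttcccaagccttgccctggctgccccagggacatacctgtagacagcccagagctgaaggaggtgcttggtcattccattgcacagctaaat

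Of windows of 50 bases along the longest transcripts, 18.2% in Kng2 and 18% in Kng1 occurred in the other gene, and of windows of 100 bases 5.69% in Kng2 and 5.8% in Kng1. How shared reads were counted is not given in the sources used here, so the split between the 2 genes is uncertain. Kng1 averaged 2997 CPM and Kng2 480 CPM over the 20 libraries, so reads of Kng1 given to Kng2 could weigh more than these shares of windows. The part of such reads in the Kng2 counts and in its diet difference was not tested. Among the other 7 genes, 1.92% of the 50-base windows of F10 and 0.0641% of those of F2 occurred in another gene, and 0% in F5, F7, F9, F11 and F12.

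Kng2 had 426, 401, 434, 423 and 419 CPM in OC.Sed livers, against 632, 481, 601, 477 and 657 CPM in Con.Sed livers. All OC libraries lay below all vehicle libraries. Kng2 fell by 0.44 on the log2 scale in sedentary mice, SE 0.10, which is 1.35-fold (edgeR adjusted p = 0.00734), and the call held under all 8 other settings and without each library in turn. In running mice it had 453, 436, 457, 565 and 395 CPM in OC.VWR livers, against 421, 484, 477, 476 and 490 CPM in Con.VWR livers. These groups overlapped, and the log2 fold change was -0.03, SE 0.10 (edgeR adjusted p = 0.901), with its sign turned to 0.08 under scaling by library totals. The averaged fall of 0.23, SE 0.07 (edgeR adjusted p = 0.0264), ended with scaling by library totals (log2 fold change -0.12, adjusted p = 0.165). The interaction of 0.41, SE 0.15, did not pass by edgeR (adjusted p = 0.213), and DESeq2 gave an adjusted p = 0.0434.

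Kng1 had 2858, 2638, 2789, 2702 and 2649 CPM in OC.Sed livers, against 3795, 2885, 3304, 3405 and 3858 CPM in Con.Sed livers. It had 2670, 2744, 2691, 3795 and 2301 CPM in OC.VWR livers, against 2892, 2754, 2948, 3102 and 3162 CPM in Con.VWR livers. In sedentary mice the groups did not overlap, while in running mice OC.VWR replicate 4 exceeded every vehicle library and the other 4 lay below them all. Kng1 fell by 0.34 on the log2 scale in sedentary mice, SE 0.11, which is 1.26-fold (edgeR adjusted p = 0.0476). That call ended without any 1 of 14 libraries (edgeR adjusted p 0.0509 to 0.0949): all 5 of OC.Sed, Con.Sed replicates 1, 3, 4 and 5, OC.VWR replicates 1, 2 and 3, and Con.VWR replicates 2 and 5. It also ended under 3 of 8 other settings: library totals (adjusted p = 0.11), no filter on low counts (0.0728) and displaced lines moved back (0.0528). In running mice the log2 fold change was -0.07, SE 0.11 (edgeR adjusted p = 0.746), and its sign turned to 0.04 with scaling by library totals. The averaged change of -0.20, SE 0.08 (edgeR adjusted p = 0.077), passed without OC.VWR replicate 4 (adjusted p = 0.00751) or Con.Sed replicate 2 (adjusted p = 0.0325), with DESeq2 (adjusted p = 0.0294) and with voom and sample weights (adjusted p = 0.0266).

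The ratio of Kng2 to Kng1 counts was 0.154 ± 0.00375 in OC.Sed livers and 0.165 ± 0.0154 in Con.Sed livers, and 0.164 ± 0.00974 in OC.VWR livers and 0.158 ± 0.0113 in Con.VWR livers (SD, n = 5 each). The ratio passed in neither activity group (exact two-sided permutation tests adjusted over 4, p = 0.381 in sedentary and p = 0.413 in running mice). Without Con.Sed replicate 4 the sedentary comparison had an unadjusted exact permutation p = 0.0159. All OC.Sed ratios (up to 0.158) then lay below all Con.Sed ratios (from 0.167), so the test could give no smaller p.

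**Figure D2:**
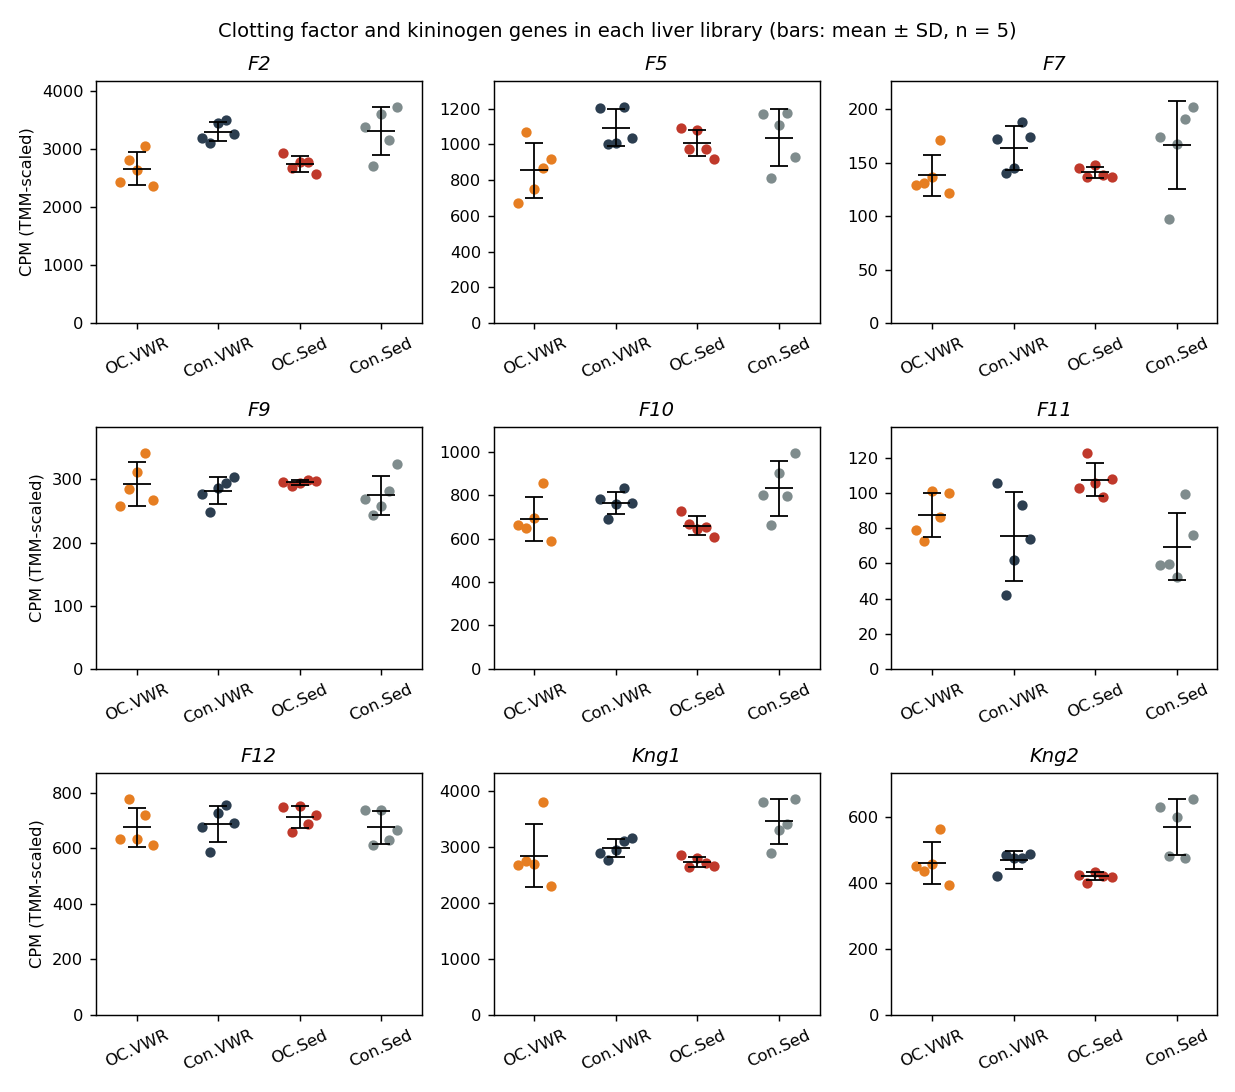
CPM of each gene in every library, scaled by TMM (trimmed mean of M-values), with the mean ± SD of 5 mice for OC.VWR, Con.VWR, OC.Sed and Con.Sed; each axis starts at 0. All OC.VWR points lie below the Con.VWR points for F2, and all OC.Sed points lie below the Con.Sed points for Kng1 and Kng2.

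The diet calls were also read within each activity group. In sedentary mice 4 passed, 3 lower (F10, Kng1 and Kng2) and 1 higher (F11), against 16.3% of all genes, of which 7.2% were lower and 9.11% higher. Groups did not overlap for 2 of the 9, Kng1 and Kng2, against 11% of all genes. The median log2 fold change of the 9 was -0.24 in sedentary mice, -0.07 in running mice and -0.20 averaged, against -0.01, 0.01 and 0.00 over all genes tested in that order. A call in 1 activity group and not in the other does not show a difference between them: the interaction passed for 0 of the 9 genes and 0% of all genes by edgeR. Its values ranged from -0.42 for F11 to 0.41 for Kng2 on the log2 scale, and the smallest adjusted p was 0.213.

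**Figure D3:**
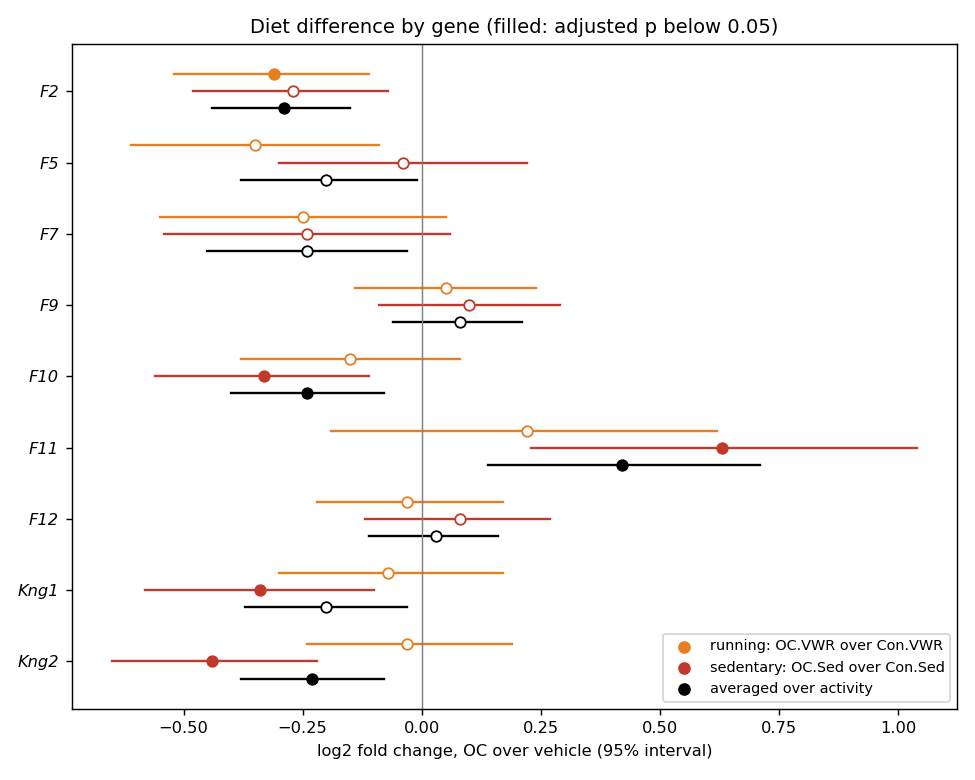
Log2 fold change of OC over vehicle for each gene in running mice, in sedentary mice and averaged over activity, with 95% intervals; filled points have an edgeR adjusted p below 0.05. F11 lies to the right of 0 at 0.63 in sedentary mice, and Kng2 lies at -0.44 in sedentary mice and at -0.03 in running mice.

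None of the 9 genes passed for wheel running. On the vehicle diet the log2 fold changes of running over sedentary mice ranged from -0.28 for Kng2 to 0.12 for F11, and the smallest edgeR adjusted p was 0.275. Kng2 averaged 469 ± 27.5 CPM in Con.VWR livers and 570 ± 85.2 CPM in Con.Sed livers (SD, n = 5 each). All 5 Con.VWR libraries were below the Con.Sed mean for Kng2. On the OC diet the values ranged from -0.30 for F11 to 0.13 for Kng2, with a smallest edgeR adjusted p of 0.683. Averaged over diet they ranged from -0.09 to 0.01, with a smallest edgeR adjusted p of 0.987. The running and sedentary ranges overlapped for all 9 genes on both diets, as they did for most genes. Only 2.01% of all genes on vehicle and 1.06% on OC had ranges apart. The share of all genes called by edgeR was 0% in each running comparison and in the interaction, although 1414 genes on vehicle, 694 on OC, 496 averaged over diet and 1802 for the interaction had an unadjusted p under 0.05. DESeq2 called 42, 1, 2 and 119 genes in that order, of the 9 only Kng2, in the interaction.

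Libraries differed from each other in ways that ran through several of the 9 genes. Within its group Con.Sed replicate 2 was the lowest library for 7 of the 9 genes, while it was the lowest for 28.3% of all genes tested. Con.VWR replicate 2 was the lowest of its group for 8 of the 9 (23.3% of all genes), and OC.VWR replicate 5 for 6 of the 9 (16.9%). OC.VWR replicate 4 was the highest of its group for 6 of the 9 (16.4%), and Con.Sed replicate 5 for 6 of the 9 (23.6%). Over all genes the first principal component (39.2% of the variance) separated the diets, and on the second (11.6%) Con.Sed replicate 2 lay at 53 and the other 19 libraries between -17.1 and 11.2. Without Con.Sed replicate 2, edgeR called 7 of the 9 genes averaged over activity in place of 4: F5, F7 and Kng1, all lower, joined F2, F10, F11 and Kng2, while the share of all genes called was 25.5% without that library. In sedentary mice 5 passed without it, with F2 and F7 added and F11 no longer passing, against 15.9% of all genes. In running mice 2 passed, F2 and F5, against 16.2% of all genes.

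**Figure D4:**
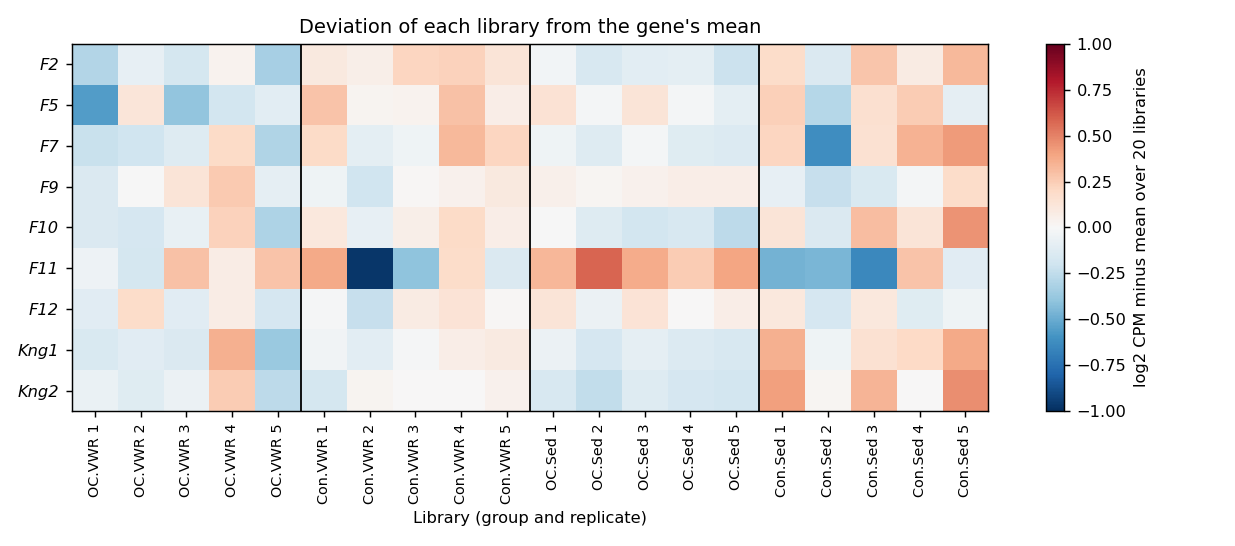
Log2 CPM of each gene in each library minus the gene's mean over the 20 libraries, from blue at -1 to red at 1, with OC.VWR, Con.VWR, OC.Sed and Con.Sed from left to right. The F11 row is red throughout OC.Sed, and Con.Sed 2 and Con.VWR 2 are mostly blue columns.

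Markers of liver cell types moved with the diet as well. The summed level of 7 hepatocyte markers ran from 113510 to 140468 CPM in OC.Sed livers and from 182012 to 220280 CPM in Con.Sed livers, and from 98957 to 137841 CPM in OC.VWR livers and from 166745 to 230832 CPM in Con.VWR livers. Of these 7 genes, among them albumin, 5 fell averaged over activity and 0 rose. Of 5 stellate cell markers 4 fell, with sums from 210 to 388 CPM in OC.Sed livers and 362 to 643 CPM in Con.Sed livers, and 223 to 376 CPM in OC.VWR livers and 316 to 450 CPM in Con.VWR livers. Of the other lists, 0 of 9 endothelial, 0 of 5 cholangiocyte and 0 of 3 platelet markers were called averaged over activity, 1 of 7 macrophage markers was higher and 2 of 5 lymphocyte and neutrophil markers were lower. No marker used was at 0 in every library. The part of these shifts in the results for the clotting genes was not tested. The scaling of libraries also moved with the diet: with library totals in place of TMM the median log2 fold change of all genes was 0.10 in sedentary mice, 0.12 in running mice and 0.11 averaged. The averaged calls were then 2559 higher and 599 lower, against 1212 higher and 1126 lower with TMM.

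Genes with the profile most like each called member were sought among 6327 genes of at least 10 CPM, by the mean absolute difference of centred log2 CPM over the 20 libraries. For F2 these were Cfb (0.066) and Uqcrc1 (0.071), against a median of 0.227 over the genes compared, and F10 stood at 0.073, Kng1 at 0.10, F7 at 0.118 and Kng2 at 0.126. For F10 they were Ces1c (0.069) and Apom (0.078), with F2 at 0.073, Kng1 at 0.081, Kng2 at 0.093 and F7 at 0.102, against a median of 0.230. For Kng2 they were Ces1c (0.086) and Cept1 (0.095), with Kng1 at 0.082 and F10 at 0.093, against a median of 0.244. For F11 they were Pgap2 (0.168) and Nat8f2 (0.172), against a median of 0.367, and the other 8 clotting genes stood at 0.319 to 0.475. F5, F9 and F12 stood further off, at 0.164, 0.184 and 0.158 from F2 and at 0.199, 0.163 and 0.156 from F10. From Kng2 they stood at 0.247, 0.184 and 0.194, with F2 at 0.126 and F7 at 0.164. These distances describe the 20 libraries and carry no test.

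The rest of the haemostatic system was read from lists that are incomplete here, because many of their genes had no intact line and were not analysed here. The counts that follow stand against the shares of all genes given above: averaged over activity 11.9% rose and 11% fell, in sedentary mice 9.11% and 7.2%, and in running mice 7.09% and 6.06%. Of 9 other procoagulant genes, 6 were tested and 0 passed averaged over activity. The fibrinogen chains Fgb and Fga, which form fibrin, had log2 fold changes of -0.07 (SE 0.11, edgeR adjusted p = 0.716) and -0.21 (SE 0.12, adjusted p = 0.205). Scaling by library totals turned the sign of Fgb, to 0.05, and Fga passed with voom and sample weights (log2 fold change -0.30, adjusted p = 0.035). In running mice 1 of the 6 fell, Vwf, named after its values were seen, which encodes the carrier of factor VIII. Vwf averaged 8.94 ± 3.2 CPM in OC.VWR livers and 13.4 ± 1.59 CPM in Con.VWR livers (SD, n = 5 each), a fall of 0.58 on the log2 scale, SE 0.19 (edgeR adjusted p = 0.0487). Its value in sedentary mice was 0.05 (adjusted p = 0.895), and the interaction of -0.63 did not pass (adjusted p = 0.25). The running call of Vwf ended without any 1 of 16 libraries (adjusted p 0.0513 to 0.136), all except OC.Sed replicate 3, Con.Sed replicates 1 and 2 and OC.VWR replicate 2, and with library totals, no filter, only the groups compared and displaced lines moved back (adjusted p 0.0587 to 0.102). The median log2 fold change of the 6 genes was -0.22 in running and -0.00 in sedentary mice.

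Of 20 genes of anticoagulation and fibrinolysis, 7 were tested, 2 rose and 0 fell. Pros1, which encodes protein S, the cofactor of activated protein C, averaged 93.2 ± 6.33 CPM in OC.Sed livers and 80.4 ± 2.39 CPM in Con.Sed livers, and 89.1 ± 13.3 CPM in OC.VWR livers and 71.9 ± 5.77 CPM in Con.VWR livers (SD, n = 5 each). It rose by 0.26 on the log2 scale, SE 0.06 (edgeR adjusted p = 0.00534), and was the 1 gene of the 7 called within an activity group, with a rise of 0.31 in running mice (adjusted p = 0.0293). That running call ended with only the groups compared (adjusted p = 0.0804) and without any 1 of 7 libraries (adjusted p 0.053 to 0.0838): OC.VWR replicates 2, 4 and 5 and Con.VWR replicates 1, 2, 3 and 4. Cpb2, which encodes the fibrinolysis inhibitor TAFI, averaged 423 ± 30.2 CPM in OC.Sed livers and 364 ± 67.6 CPM in Con.Sed livers, and 447 ± 62.8 CPM in OC.VWR livers and 361 ± 31 CPM in Con.VWR livers. It rose by 0.26, SE 0.08 (edgeR adjusted p = 0.0272), a call that ended without OC.Sed replicate 1, OC.VWR replicate 4 or Con.VWR replicate 1 (adjusted p 0.051 to 0.0531). Plg, the gene of plasminogen, and Hrg, that of histidine-rich glycoprotein, did not pass, with log2 fold changes of -0.05 (edgeR adjusted p = 0.783) and 0.24 (adjusted p = 0.132). With library totals the value of Plg turned to 0.07, and Hrg passed (log2 fold change 0.36, adjusted p = 0.0128).

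Of 10 genes of vitamin K use and factor secretion, 7 were tested and 1 rose averaged over activity. Ggcx, the carboxylase that modifies prothrombin and factors VII, IX and X, averaged 102 ± 12.3 CPM in OC.Sed livers and 74.6 ± 8.5 CPM in Con.Sed livers, and 86.3 ± 4.81 CPM in OC.VWR livers and 89.2 ± 11 CPM in Con.VWR livers (SD, n = 5 each). It rose by 0.46 on the log2 scale in sedentary mice, SE 0.10 (edgeR adjusted p = 0.00428), and its value in running mice was -0.05 (adjusted p = 0.799), which turned to 0.08 with library totals. The interaction of -0.50, SE 0.14, did not pass (edgeR adjusted p = 0.201). Its averaged rise of 0.20, SE 0.07 (edgeR adjusted p = 0.0407), ended without any 1 of 13 libraries (adjusted p 0.0521 to 0.117): OC.Sed replicates 1, 2 and 3, Con.Sed replicates 1, 2 and 5, OC.VWR replicates 1, 3, 4 and 5, and Con.VWR replicates 2, 3 and 5. That averaged call also ended with no filter (adjusted p = 0.0573), with voom and sample weights (0.0504) and with displaced lines moved back (0.0719). In sedentary mice 2 of the 7 rose, Ggcx and Furin, the gene of a protease that trims precursors. Furin averaged 445 ± 24.6 CPM in OC.Sed livers and 368 ± 41.9 CPM in Con.Sed livers (SD, n = 5 each), a rise of 0.27 on the log2 scale, SE 0.09 (edgeR adjusted p = 0.0374). In running mice its log2 fold change was -0.12 (adjusted p = 0.392), and the interaction of -0.39 did not pass (adjusted p = 0.201). The sedentary call of Furin ended without any 1 of 9 libraries (adjusted p 0.0523 to 0.116): OC.Sed replicates 1, 2, 3 and 5, Con.Sed replicates 2, 3 and 5, OC.VWR replicate 5 and Con.VWR replicate 1. It also ended with no filter (adjusted p = 0.0588) and with only the groups compared (adjusted p = 0.102). Averaged over activity Furin and Mcfd2, a cargo receptor subunit for factors V and VIII, had log2 fold changes of 0.08 (edgeR adjusted p = 0.401) and 0.01 (adjusted p = 0.913), and Furin passed with library totals (0.19, adjusted p = 0.0162).

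Of 10 genes of kinin processing, 3 were tested and 1 fell. Dpp4, a peptidase that cleaves many peptides, averaged 149 ± 7.82 CPM in OC.Sed livers and 201 ± 25.1 CPM in Con.Sed livers, and 142 ± 8.29 CPM in OC.VWR livers and 200 ± 18.2 CPM in Con.VWR livers (SD, n = 5 each), a fall of 0.46 on the log2 scale, SE 0.06 (edgeR adjusted p = 1.66e-05). Mme and Ace, which encode the bradykinin-cleaving peptidases neprilysin and angiotensin-converting enzyme, had log2 fold changes of 0.18 (edgeR adjusted p = 0.177) and -0.46 (adjusted p = 0.071). Mme passed with library totals (log2 fold change 0.31, adjusted p = 0.0152). Ace passed with voom and sample weights (adjusted p = 0.0247), and by edgeR without OC.VWR replicate 2 or OC.Sed replicate 3 (adjusted p 0.0236 to 0.0439).

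Of 25 liver transcription factors and receptors, 13 were tested, 3 rose and 1 fell averaged over activity. Stat5a, whose product acts downstream of growth hormone and prolactin receptors, averaged 52 ± 12.8 CPM in OC.Sed livers and 18.4 ± 3.72 CPM in Con.Sed livers, and 66.9 ± 30.3 CPM in OC.VWR livers and 20.9 ± 2.28 CPM in Con.VWR livers (SD, n = 5 each). It rose by 1.59 on the log2 scale, SE 0.17 (edgeR adjusted p = 6.21e-07). Cux2, a transcription factor of female-type liver expression in mice, fell by 1.52 on the log2 scale, SE 0.32 (edgeR adjusted p = 0.00141). Foxa1, a hepatic forkhead factor, rose by 0.42 (SE 0.13, edgeR adjusted p = 0.0239) and Esr1, the oestrogen receptor alpha gene, by 0.34 (SE 0.11, adjusted p = 0.033). The Foxa1 call ended without OC.Sed replicate 3, OC.VWR replicate 5 or Con.VWR replicate 1 (adjusted p 0.0504 to 0.0564). The Esr1 call ended without any 1 of 8 libraries (adjusted p 0.0506 to 0.0736): OC.Sed replicate 3, Con.Sed replicates 2 and 3, OC.VWR replicates 2, 4 and 5, and Con.VWR replicates 1 and 2. Both calls ended with voom and sample weights (adjusted p = 0.0599 for Foxa1 and 0.0602 for Esr1). Rxra, the gene of a partner of nuclear receptors, and Prox1, that of a homeobox factor, did not pass averaged over activity, with log2 fold changes of -0.12 (edgeR adjusted p = 0.344) and -0.08 (adjusted p = 0.751). Rxra passed with voom and sample weights (-0.20, adjusted p = 0.0443).

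Within the activity groups, 4 of these 13 genes rose and 1 fell in sedentary mice, and 1 rose and 3 fell in running mice. Stat5a and Cux2 passed in both. Their median log2 fold change was 0.18 in sedentary mice and -0.22 in running mice. Foxa1 rose by 0.58 in sedentary mice (edgeR adjusted p = 0.0379) and had a value of 0.26 in running mice (adjusted p = 0.371). Esr1 rose by 0.56 in sedentary mice (edgeR adjusted p = 0.0212) and had a value of 0.12 in running mice (adjusted p = 0.666). Rxra averaged 512 ± 90.5 CPM in OC.VWR livers and 666 ± 40.6 CPM in Con.VWR livers (SD, n = 5 each), a fall of 0.38 on the log2 scale in running mice (edgeR adjusted p = 0.0496), and its value in sedentary mice was 0.13 (adjusted p = 0.495). The interaction passed for none of Foxa1, Esr1 and Rxra, with adjusted p = 0.539 for Foxa1, 0.308 for Esr1 and 0.207 for Rxra.

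Leaving out 1 library ended calls within an activity group. The sedentary call of Foxa1 ended without any 1 of 7 libraries (adjusted p 0.056 to 0.124): OC.Sed replicates 1, 3 and 4 and Con.Sed replicates 2, 3, 4 and 5. It also ended with voom and sample weights (adjusted p = 0.136) and with only the groups compared (adjusted p = 0.0809). That of Esr1 ended without OC.Sed replicate 3 or Con.Sed replicate 3 (adjusted p 0.0501 to 0.0635). The running call of Rxra ended without any 1 of 17 libraries (adjusted p 0.0508 to 0.146), all except Con.Sed replicates 1 and 2 and OC.VWR replicate 2, and with library totals, no filter, only the groups compared and displaced lines moved back (adjusted p 0.0542 to 0.146). Cux2 fell by 1.36 in sedentary mice (edgeR adjusted p = 0.0423) and by 1.68 in running mice (adjusted p = 0.0183). Its sedentary call ended without any 1 of 9 libraries (adjusted p 0.0502 to 0.0963): OC.Sed replicates 1, 2, 4 and 5, Con.Sed replicates 1, 3, 4 and 5, and OC.VWR replicate 3. Its running call ended without OC.VWR replicate 1 or Con.VWR replicate 3 (adjusted p 0.0533 to 0.0558). The Stat5a calls, rises of 2.83-fold in sedentary mice and 3.21-fold in running mice, held without each library in turn.

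**Figure D5:**
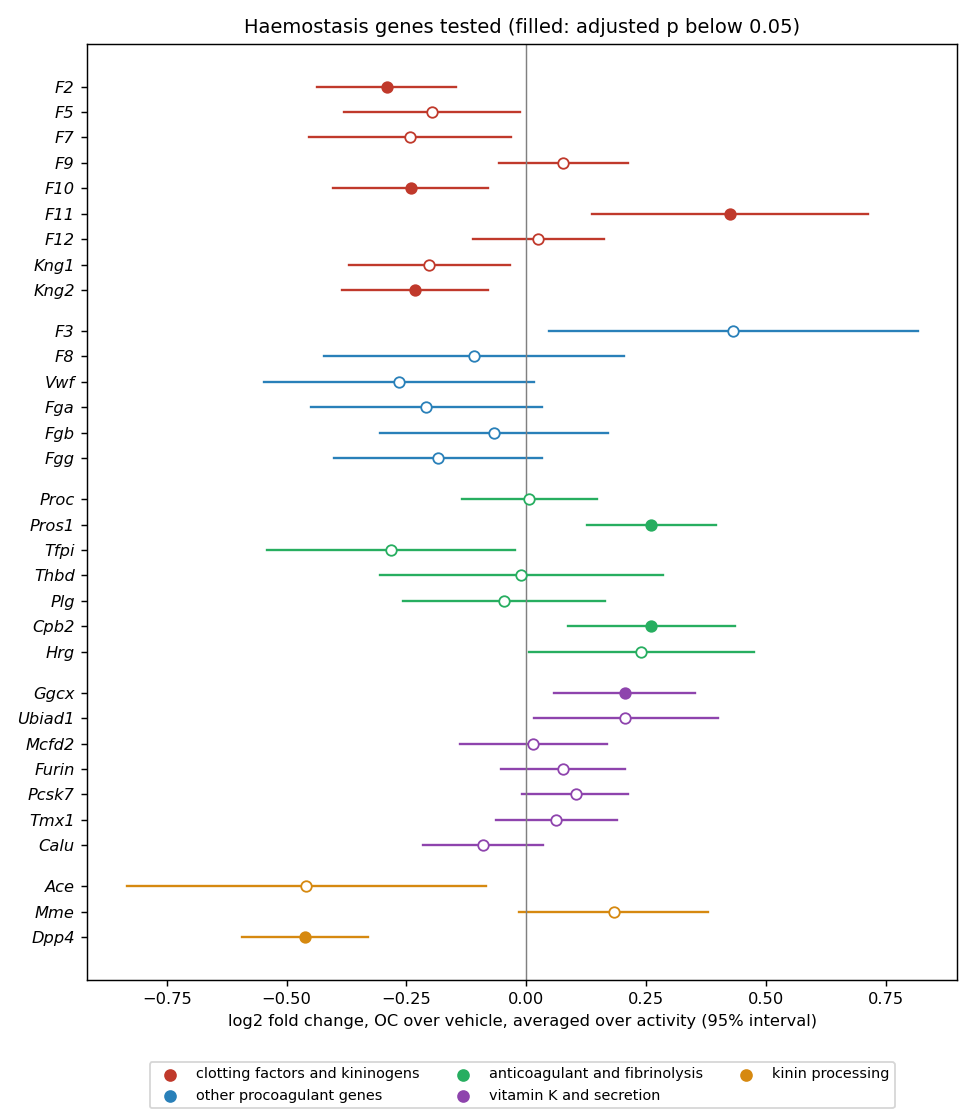
Log2 fold change of OC over vehicle averaged over activity, with 95% intervals, for the 9 genes and the tested genes of 4 other haemostatic lists; filled points have an edgeR adjusted p below 0.05. The filled points are F2, F10, Kng2 and Dpp4 to the left of 0 and F11, Pros1, Cpb2 and Ggcx to the right.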

How the data were processed

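Liver RNA of 20 mice was sequenced as stranded paired-end libraries, per the labels' protocols. The submitters' processing notes name STAR, mm10, R 4.05 and limma; the counting program, annotation and strand setting are not given in the sources used here. The authors deposited 1 table of 35504 genes whose values are unnormalized; as deposited, 2 genes hold values that are not whole, so the values were treated as estimated counts, where raw counts had been foreseen, and those 2 genes were not used. How the authors made these estimated counts beyond the tools named is not stated in the file headers. In 11511 lines (32.4%) the entries were displaced by 1 or 2 places or could not be told from displaced ones, and they were left out. That left 23993 genes, with 10883936 to 16134618 counts per library.

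Testing used edgeR 4.0.16 under R 4.3.3. filterByExpr kept 10207 genes holding 99.95% of the counts, TMM factors ran from 0.904 to 1.11, and 1 quasi-likelihood model with a mean per group gave 7 contrasts (common biological coefficient of variation 0.178). The Benjamini-Hochberg adjustment covered these 10207 genes, with a threshold of 0.05, and adjusted p-values given with no other tool are from this model. Standard errors and 95% intervals belong to its log2 fold changes. Each p sets a difference of group means against the spread between animals within groups, estimated in 1 fit over all groups. It is then adjusted over the genes tested. Ratios were tested by exact permutation (scipy 1.17.1). The steps were tested on simulated counts. DESeq2 1.42.0 and limma 3.58.1 voom served as alternatives.

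The genes and lists were chosen with earlier results of these data known, so no list has a test of its own. Named list genes are up to 4 called averaged over activity and the 2 uncalled of highest mean CPM. Gene positions, exon lengths and coding lengths are from GENCODE M21 (GRCm38). Each member's nearest profiles are the 2 other genes with the smallest mean difference. Promoters were cut to the 250 bases before the start. No 2 libraries of a group were alike within counting noise. Some genes of the transcription factor list are not reported here by name.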

Additional observations from a re-analysis of the deposited data

Results flagged for a closer look

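Of the 36 groups of 5 values formed by the 9 genes and the 4 groups, 1 held a library that stood apart from the others. Kng2 had 421 CPM in Con.VWR replicate 1, against 476 to 490 CPM in the other 4 Con.VWR libraries, a gap of 0.795 of the whole range against a critical value of 0.71. Chance flags about 1 in 20 such groups. The diet comparison of Kng2 in running mice was not called with or without that library.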

How the results depend on the processing

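The settings were scaling by RLE or by library totals only, no filter on low counts, DESeq2, limma voom with and without sample weights, only the groups compared, displaced lines moved back in 19 libraries, and each of the 20 libraries left out. The setting with displaced lines moved back also left out 1 library, for which those lines hold no value. In sedentary mice 2 of the 9 genes were called with library totals, with no filter and with displaced lines moved back, and from 1 to 5 with 1 library left out. In running mice 0 were called with library totals, no filter, only the groups compared and displaced lines moved back, 2 with DESeq2 and with weighted voom, and from 0 to 2 with 1 library left out. Averaged over activity weighted voom called 7, while it called 30.6% of all genes, and the range with 1 library left out was 3 to 7. Over all genes with 1 library left out, the sedentary count of 1665 ranged from 998 (without OC.Sed replicate 1) to 1794, and with all libraries it was 2072 with library totals, 2027 with weighted voom and 1123 with only the groups compared. The running count of 1343 ranged from 817 (without OC.VWR replicate 1; 835 without OC.VWR replicate 3) to 1679 in the same way, and was 2224 with weighted voom and 1725 with library totals. For running against sedentary, DESeq2 called 42 genes on vehicle, 1 on OC and 2 averaged over diet; leaving out 1 library gave 0 to 1 genes on OC and 0 to 1 averaged over diet. For the interaction DESeq2 called 119 genes, 1 of them among the 9, weighted voom called 4, and leaving out 1 library gave 0 to 2.

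Signs turned for uncalled values near 0. With library totals these were F5 in sedentary mice (0.08), F12 (0.09), Kng1 (0.04), Kng2 (0.08) and Ggcx (0.08) in running mice, and Fgb (0.05), Plg (0.07) and Prox1 (0.04) averaged; with weighted voom F12 averaged (-0.02). With 1 library left out the ranges that crossed 0 were -0.12 to 0.01 for F5 in sedentary mice, and in running mice -0.01 to 0.10 for F9, -0.08 to 0.01 for F12, -0.11 to 0.01 for Kng2 and -0.10 to 0.01 for Ggcx. Averaged over activity they were 0.00 to 0.04 for F12, -0.02 to 0.06 for Mcfd2 and -0.18 to 0.00 for Prox1. The cause was not tested. The leaving out of Con.Sed replicate 2, the leave-one-out ratios and the short motifs were chosen after seeing the data. No paired analysis was made because the labels give no pairing. They give no replicate numbers either. The numbers used here count the libraries of each group in the order of the sample records, and equal numbers in different groups do not link animals. With 5 animals a group, the edgeR adjusted p of F10, F11 and Kng1 in sedentary mice and of F2 in running mice lay between 0.0319 and 0.0476, close to the threshold.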
